A study of Mus musculus with 8 samples.

Results

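The cytosolic ribosomal protein genes were examined as a group of constitutively used promoters in ATAC-seq peak lists of mouse pachytene spermatocytes. In ATAC-seq, a transposase places sequencing adapters wherever DNA is accessible, and a peak is an interval in which such insertions pile up above background. Members were the protein-coding genes whose symbol was Rpl or Rps followed by digits alone or by digits and a final a, together with *Rplp0*, *Rplp1* and *Rplp2*. The rule used gene symbols and no measured value, and it found 74 members among 21938 annotated protein-coding genes on the mouse autosomes, X and Y. There were 43 genes of the large subunit named Rpl, 28 of the small subunit named Rps and the 3 Rplp genes of the stalk. Chromosome 7 held 14 members, chromosome 11 held 7, chromosome X held 3 and chromosome Y held 0.

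Each ribosome is built from ribosomal RNA and a fixed set of ribosomal proteins, and growing cells need nearly all of these proteins in matched amounts. Their genes are therefore the textbook case of housekeeping genes. In vertebrates, many of their transcripts start within a run of pyrimidines, the 5′ terminal oligopyrimidine (TOP) motif, through which their translation is tied to growth signals. Several have small nucleolar RNA (snoRNA) genes in their introns. On chromosome X they pose a particular problem in the male germ line, because X and Y are transcriptionally silenced in pachytene spermatocytes, and autosomal copies of some X-linked members exist.

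The study compared pachytene spermatocytes of 2 genotypes, with 4 libraries of 100000 cells each, to ask how chromatin accessibility changes when ARID1A is lost. ARID1A is a putative DNA-binding subunit of the BAF chromatin remodeling complex. *Arid1a* WT cells came from adult males that carried floxed *Arid1a* alleles (fl/fl or fl/+) without Cre, so that WT here does not mean free of the floxed allele. *Arid1a* cKO cells came from adult *Arid1a* fl/fl males with 1 copy of the Stra8-Cre transgene (Tg/0), which is active in spermatogonia. The floxed line was kept on a CD1 background. Testes of several males were pooled for each Sta-Put sedimentation, and the purified cells of both genotypes were stored frozen before use. The study's methods and stainings describe incomplete Cre excision, so that cKO preparations mix spermatocytes without ARID1A with others that kept it.

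Each genotype had 1 deposited peak list, made by intersecting the peaks of its 4 libraries, so that no value of a single library and no spread between replicates was at hand. No difference between WT and cKO was therefore tested, and the intervals below cover counting error over genes only. The WT list held 52419 rows that collapsed to 19309 named peaks, and the cKO list held 84006 rows and 30244 peaks. The background of the library behind the deposited values was 4.33 fragments per base for WT and 5.11 for cKO, a ratio of 1.18. The part of this difference in list length and background in the results below was not tested. The cell type was checked by promoter peaks at marker genes. Of 12 pachytene markers, 12 had a promoter peak in each list. Of 16 markers of testis somatic cells, 3 did in each list, against 2 and 5 of 10 spermatogonial markers and 3 and 4 of 8 spermatid markers for WT and cKO. The share over all protein-coding genes was 49.7% in WT and 56.7% in cKO. The cKO counts of spermatogonial and spermatid markers were thus near the share over all genes.

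The letters at the starts of the members were read first, since they define the kind of promoter being scored. RefSeq promoter windows on GRCm38.p6, from 250 bases before to 50 bases after a start, were at hand for 54 of the 74 members, with 64 windows in all. A run of C and T of at least 8 bases overlapped the start base in 17 of 64 windows (26.6%), against 3.57% of 20150 windows of protein-coding genes. Within 50 bases of the start, such a run was found in 54 of 64 windows (84.4%), against 34.9% of all windows and 29% of the 9021 windows whose start lay inside a WT peak. This latter measure was chosen after the sequences had been seen. By gene, 48 of 54 members (88.9%) had such a run near a start. The longest run within 50 bases had a median of 11 bases in member windows and of 6 bases in all windows. The 5 members with the longest run over the start are shown from 50 bases before the start to the 30th base of the transcript, in the direction of transcription and on GRCm38.p6, with the longest run of C and T of the printed stretch in capitals.
Rpl7a, chr2:26910757-26910836, plus strand: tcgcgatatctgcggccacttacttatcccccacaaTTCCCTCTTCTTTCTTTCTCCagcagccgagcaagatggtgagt
Rpl27a, chr7:109519145-109519224, plus strand: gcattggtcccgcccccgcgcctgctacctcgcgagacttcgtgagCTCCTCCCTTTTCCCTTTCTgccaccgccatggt
Rpl34, chr3:130730308-130730387, minus strand: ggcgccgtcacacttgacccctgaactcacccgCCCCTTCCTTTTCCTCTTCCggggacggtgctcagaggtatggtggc
Rpl35, chr2:39005102-39005181, minus strand: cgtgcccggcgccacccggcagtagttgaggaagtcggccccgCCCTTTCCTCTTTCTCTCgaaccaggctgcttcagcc
Rpl15, chr14:18270957-18271036, minus strand: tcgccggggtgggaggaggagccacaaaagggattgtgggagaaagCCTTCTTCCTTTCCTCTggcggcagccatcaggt
The runs were 21 bases long in *Rpl7a*, 20 in *Rpl27a*, 20 in *Rpl34*, 18 in *Rpl35* and 17 in *Rpl15*. Each of these 5 encodes a large subunit protein. All 5 starts lay inside a promoter peak in both lists.

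Short motifs were then searched in the same windows on both strands. A match is a string of letters and was not tested as a binding site. The ETS letters CCGGAAG were found in 35.9% of member windows, 11.9% of all windows and 22% of windows with an open start. The YY1 letters AAGATGG, which include the start codon in some genes, were found in 17.2%, 6.3% and 7.84%. The SP/KLF letters GGGCGG were found in 59.4%, 47.8% and 70.7%, so that member windows lay between all windows and open ones. The E-box CACGTG was found in 12.5%, 8.03% and 11.5%, and the cyclic AMP response element TGACGTCA in 7.81%, 2.31% and 3.84%. The NRF1 letters GCGCATGC were found in 4.69%, 3.65% and 7.07%. The TATA box letters TATAAA were found in 9.38% of member windows, 12.1% of all windows and 4.88% of open ones. GC content had a median of 58.2% in member windows, 57% in all and 62.7% in open ones. The observed over expected frequency of CpG had a median of 0.874 in member windows, against 0.588 and 0.817. By CpG frequency member windows were thus nearer to open windows, and by GC content nearer to all windows. Runs of C and T at the start were more frequent in members than in either set.

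**Figure D1:**
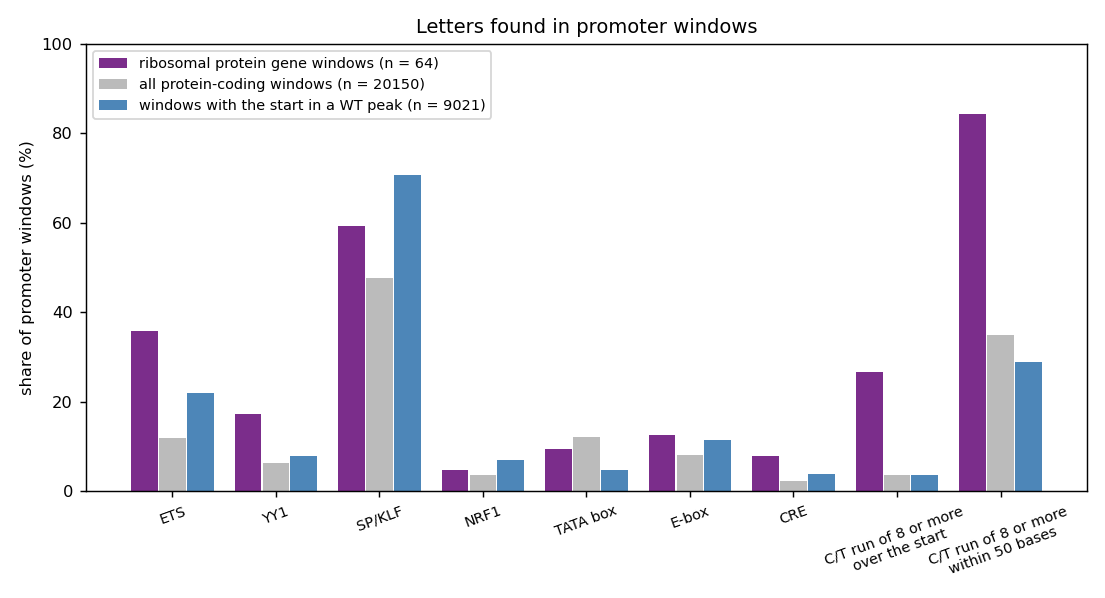
The bars give the share of promoter windows (%) that held each motif or run, for 64 windows of ribosomal protein genes, all 20150 windows of protein-coding genes and the 9021 windows whose start lay in a WT peak. The bar for a C/T run within 50 bases reached 84.4% in members, against 34.9% and 29% in the other window sets.

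A promoter peak was a peak whose interval met by 1 bp or more a window around any annotated transcript start of a gene, reaching 1000 bp upstream and 100 bp downstream. In the WT list, 72 of 74 members had one (97.3%, 95% Wilson interval 90.7 to 99.3%), whereas 49.7% of all protein-coding genes did. In the cKO list, 72 of 74 members had one as well, whereas 56.7% of all protein-coding genes did. The members with a peak were the same 72 in both lists. Of genes without a WT peak, 14.5% gained one in the cKO list, and only 2 members could have done so, of which 0 did. Of genes with a WT peak, 0.541% had none in the cKO list, against 0 of 72 members, which allows a share of up to 4.17% at 3 counts of 72 (Wilson upper limit 5.07%). The 2 members without a peak in either list were *Rpl39* and *Rps25*, and 43.0% of all protein-coding genes were without one in both. Presence of a peak therefore left almost no room for a difference between genotypes, and width and strength were examined next.

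Members stood near the middle of open promoters by width. The width of the member peaks had a median of 1016 bp in WT (95% interval of the median 942 to 1085, range 380 to 3002), against 1068 bp over all genes with a promoter peak. In cKO the median was 1568 bp (1411 to 1724, range 450 to 4043), against 1470 bp. In relation to the reference start, the middle one of the starts of a gene's protein-coding transcripts, member peaks reached a median of 510.5 bp upstream and 565 bp downstream in WT, and 738.5 bp and 799 bp in cKO. The corresponding medians over all genes were 514 and 526 bp in WT and 712 and 725 bp in cKO. The peak covered the reference start in 70 of 72 members (97.2%) in each list, against 82.7% of all genes in WT and 83.4% in cKO. The 2 exceptions were *Rpl18*, for a rim protein of the large subunit, and *Rpl17*, for a protein near the exit of the nascent chain, whose strongest peaks lay at other annotated starts. The *Rpl18* peak ended 2626 bp upstream of its reference start and held the start of *Sphk2* on the opposite strand. *Rpl18* had 2 promoter peaks in each list, and its RefSeq start lay inside a peak in both, so that its width and fold enrichment here are those of the stronger peak at *Sphk2*. The *Rpl17* peak began 1619 bp downstream of its own.

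**Figure D2:**
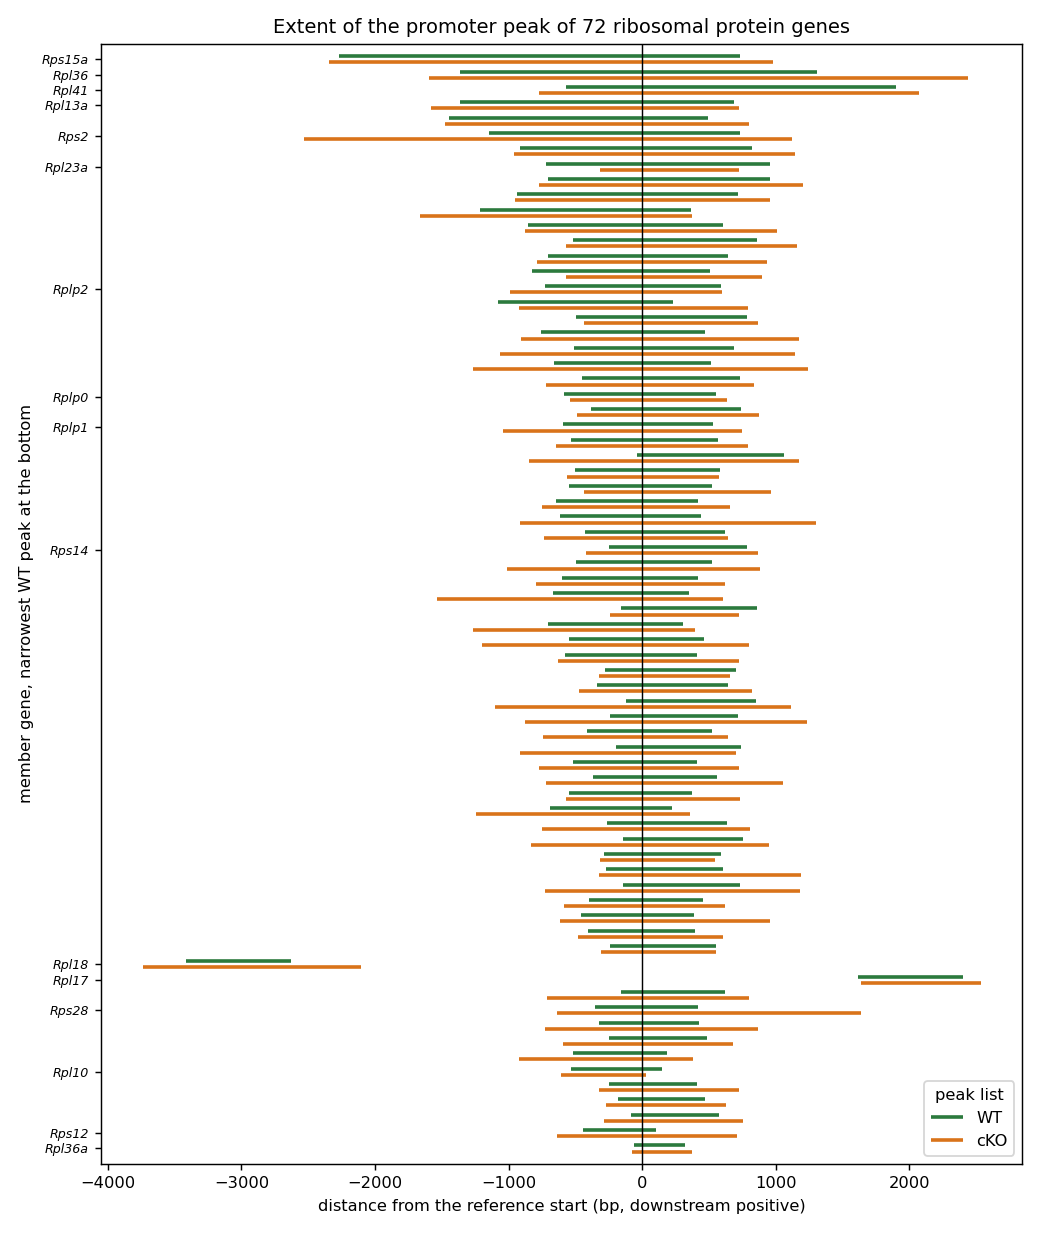
Each of the 72 members with a peak has a green bar for the WT peak and an orange bar for the cKO peak, drawn from its upstream to its downstream end in bp from the reference start (black line), in the order of WT width, with a few members named. The bars of 70 members cross the line in each list, those of *Rpl18* and *Rpl17* lie to either side of it, and the orange bars are longer than the green ones in 67 members.

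Strength was read from the deposited fold enrichment, the height of the pileup at the peak summit over the background of the library. This ratio depends on the library, so genes were ranked within each list, and the percentile of a gene is its rank among all protein-coding genes with a promoter peak in that list. Member peaks had a median fold enrichment of 9.1 in WT (95% interval 8.63 to 9.76, range 3.19 to 18.4), against 8.63 over all such genes. In cKO the median was 15.1 (12.9 to 16.4, range 4.09 to 26.7), against 12.3. The median percentile of members was 54 in WT (95% interval 49.75 to 59.07) and 61.7 in cKO (52.82 to 66.53). These intervals overlapped. Of 72 members, 44 ranked above the middle in WT (61.1%, 49.6 to 71.5%, with 49.5% of all genes there) and 52 in cKO (72.2%, 61 to 81.2%, with 50.1%). The percentile shifted from WT to cKO by a median of 7.15 points over members and of 4.8 points over 10839 genes with a peak in both lists. The 1604 genes with a promoter peak in cKO alone enter the cKO ranks and not the WT ranks. Percentiles therefore cannot be compared directly between the lists, and whether members shifted more than other genes was not tested. Fold enrichment in WT and in cKO was correlated across members with a Spearman rho of 0.844 (n = 72) and across all genes with one of 0.941 (n = 10839). These genes share 1 reference library in each list.

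The strongest member peak in WT was that of *Rpl13a*, which encodes a large subunit protein and hosts 4 snoRNA genes. It spanned chr7:45128011-45130069 on mm10, was 2059 bp wide and had a fold enrichment of 18.4 (percentile 94.5). In cKO it was 2309 bp wide with 26.0 (percentile 90.8). The next in WT were *Rplp0* at 17.8, *Rpl41* at 16.9, *Rps19* at 14.8 and *Rps2* at 14.4. The *Rpl41* peak also held the start of *Zc3h10* on the same strand in both lists, so it cannot be assigned to *Rpl41* alone. *Rpl41* encodes the smallest ribosomal protein, *Rps19* is needed to mature the small subunit and *Rps2* lies at the entry of the mRNA channel. In cKO *Rpl41* had 24.4, *Rps2* had 24.2, *Rps19* had 23.4 and *Rplp0* had 22.7. These 5 members thus ranked at a percentile of at least 84.8 in each list. The starts of 3 of the strongest are shown in the same form as above.
Rpl13a, chr7:45128716-45128795, minus strand: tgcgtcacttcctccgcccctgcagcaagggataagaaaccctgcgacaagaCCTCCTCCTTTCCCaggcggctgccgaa
Rplp0, chr5:115559417-115559496, plus strand: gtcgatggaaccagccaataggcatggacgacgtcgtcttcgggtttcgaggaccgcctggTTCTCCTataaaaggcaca
Rps2, chr17:24720013-24720092, plus strand: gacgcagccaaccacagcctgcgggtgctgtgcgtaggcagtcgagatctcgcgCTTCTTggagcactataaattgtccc
In these 3 the longest run in the printed stretch had 14, 7 and 6 bases, and in none did a run of at least 8 bases overlap the start. TATAAA stood 17 bases after the RefSeq start in *Rplp0* and in *Rps2*. These starts are those of the table and were not measured here.

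The lowest autosomal member in WT was *Rps14*, a protein of the small subunit platform, at 4.50 (percentile 12.7, 1034 bp). In cKO it reached 11.4 (percentile 46.8, 1289 bp), and this shift of 34.1 points was the highest among members. *Rpl35a* and *Rpl24* followed in WT, each at 5.44. In cKO the low autosomal members were *Rpl31* at 8.35, *Rpl37a* at 8.51 and *Rpl24* at 8.67, all 3 of the large subunit. The sharpest fall in rank was that of *Rps6*, the small subunit protein phosphorylated downstream of mTOR, from a percentile of 66.7 to 51.5 with fold enrichments of 10.9 and 12.6. *Rps6* falls outside the rule for named genes and was chosen after its values were seen. Most members thus kept to the middle of the ranks, and none of the autosomal ones was below a percentile of 12.7 in WT or 31.8 in cKO.

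By subunit, 42 of 43 Rpl genes, 27 of 28 Rps genes and 3 of 3 Rplp genes had a promoter peak in each list. The median percentile by fold enrichment was 52.3 in WT and 54.1 in cKO for Rpl, 56.2 and 63.3 for Rps, and 75.3 and 81.1 for Rplp. *Rplp0*, *Rplp1* and *Rplp2* encode the stalk through which translation factors reach the large subunit. *Rplp0* went from 1141 bp and 17.8 in WT to 1176 bp and 22.7 in cKO. *Rplp1* went from 1120 bp and 8.82 to 1790 bp and 16.4. *Rplp2* went from 1319 bp and 12.4 to 1590 bp and 21.1. The 3 stalk genes thus differed by up to 41.9 percentile points among themselves in WT.

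The comparison between genotypes rests on the width of the strongest promoter peak of a gene in each list. In every member with a peak, at least 61.9% of the WT peak lay inside the cKO one. Over all genes, an overlap of the 2 peaks was not required. The cKO peak was the wider in 67 of 72 members (93.1%, 84.8 to 97%), and in 95.3% of all 10839 genes with a promoter peak in both lists. It was at least 1.5 times as wide in 32 of 72 members (44.4%, 33.5 to 55.9%), and in 45.0% of all such genes. The median ratio of cKO to WT width was 1.38 for members (95% interval 1.31 to 1.6, range 0.619 to 2.95) and 1.44 for all genes (1.43 to 1.45). Among 3161 other genes whose WT fold enrichment lay within the interquartile range of the members, it was 1.41 (1.39 to 1.43). Member promoters were thus wider in the cKO list to about the extent of other open promoters, and the longer cKO list as a whole cannot be told apart from a change at these genes. The WT peak lay wholly inside the cKO one in 59 of 72 members (81.9%) and in 80.1% of all genes.

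Among members, Rpl genes had a median ratio of 1.59 (1.31 to 1.75), with 24 of 42 at least 1.5 times as wide. Rps genes had 1.32 (1.25 to 1.47), with 7 of 27, and the stalk genes 1.21. The intervals of the Rpl and Rps medians overlapped. The highest ratio was that of *Rps28*, whose protein lines the mRNA exit channel, with 771 bp in WT (chr17:33824076-33824846) and 2275 bp in cKO (chr17:33822852-33825126), a ratio of 2.95. This extension ran mainly downstream of the start. The *Rps28* peak also held the start of *Ndufa7* on the opposite strand in both lists. *Rps12*, for a protein of the beak of the small subunit, went from 551 to 1355 bp. *Rpl8*, for a protein close to the peptidyl transferase center, went from 977 to 2218 bp. *Rpl13*, of the large subunit, went from 959 to 2110 bp, and *Rps20*, of the small subunit head, from 878 to 1912 bp. These members with the highest ratios were all at or below the median WT width. WT width is the divisor of the ratio, so this is in part built into the measure.

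The peak was narrower in the cKO list in 4 members. *Rpl23a*, for a protein at the rim of the exit tunnel, went from 1683 to 1042 bp, a ratio of 0.619 and the lowest of all members, and 61.9% of its WT peak lay inside the cKO one. Its fold enrichment was 7.13 in WT and 11.9 in cKO. *Rps24* went from 879 to 858 bp and the X-linked *Rpl10* from 683 to 635 bp. *Rpl23* measured 982 bp in both lists. *Rpl23a* thus stood apart from these, whose ratios were 0.976 and 0.930.

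**Figure D3:**
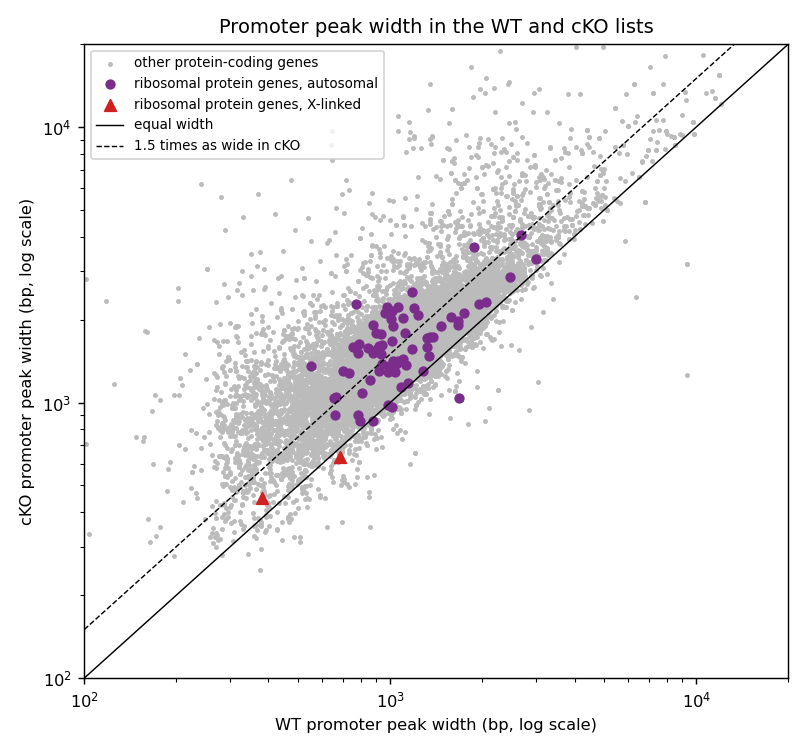
Each point is a gene with a promoter peak in both lists, with the WT width on the x axis and the cKO width on the y axis (bp, log scales), grey for other protein-coding genes, purple for autosomal members and red triangles for X-linked members. The solid line marks equal width and the dashed line a cKO peak 1.5 times as wide, and 32 of 72 members lie on or above the dashed line.

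The widest member peaks in WT were those of *Rps15a* (3002 bp), *Rpl36* (2673 bp), *Rpl41* (2470 bp), *Rpl13a* (2059 bp) and *Rpl7* (1944 bp). In cKO they were *Rpl36* (4043 bp), *Rps2* (3656 bp), *Rps15a* (3320 bp), *Rpl41* (2851 bp) and *Rps15* (2509 bp). Some of these peaks held the start of another protein-coding gene. It was *Zc3h10* for *Rpl41* and *Rdh10* for *Rpl7* in both lists, and *Rnf151* for *Rps2* in cKO alone. The narrowest in WT after *Rpl36a* were *Rps12* (551 bp), *Rpl5* (656 bp), *Rps23* (659 bp) and *Rpl32* (665 bp). *Rpl5* binds 5S ribosomal RNA and *Rps23* lies at the decoding center. In cKO the narrowest were *Rpl36a*, *Rpl10* (635 bp), *Rps10* and *Rps24* (858 bp each) and *Rpl17* (899 bp). Width and strength did not go together in every gene, since *Rps15a* had the widest WT peak at a percentile of 65.5 by fold enrichment, and *Rplp0* had the next to highest fold enrichment at 1141 bp.

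The number of rows under 1 name counts the overlap intervals that the intersection left for a peak. Whether each row stands for 1 other library was not tested. In WT, 70 of 72 member peaks had 3 or more rows (97.2%), with 93.4% for all genes with a promoter peak, and in cKO 72 of 72 did, with 96.7%. The 2 members with 2 rows in WT were *Rpl10* and *Rpl36a*, which are both X-linked, and each had 3 rows in cKO. The highest row count in WT was that of *Rps15a* with 5, and in cKO *Rpl35* and *Rpl36* had 4 each.

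The 3 X-linked members were among the 3 weakest of the 72 or had no peak. *Rpl36a*, for a protein near the exit site of tRNA, had the lowest fold enrichment and the narrowest peak of the 72 members in both lists. It had 3.19 and 380 bp in WT (chrX:134585594-134585973) and 4.09 and 450 bp in cKO (chrX:134585578-134586027). *Rpl10*, which is needed to join the subunits, had the lowest fold enrichment but for *Rpl36a* and *Rps14* in WT, with 5.25 and 683 bp (chrX:74270324-74271006). In cKO it had 8.35 and 635 bp (chrX:74270249-74270883). *Rpl39*, for a small protein of the exit tunnel, had no promoter peak in either list. The starts of the 3 are shown in the same form.
Rpl10, chrX:74270766-74270845, plus strand: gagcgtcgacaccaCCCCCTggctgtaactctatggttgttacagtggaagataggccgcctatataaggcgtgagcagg
Rpl36a, chrX:134585604-134585683, plus strand: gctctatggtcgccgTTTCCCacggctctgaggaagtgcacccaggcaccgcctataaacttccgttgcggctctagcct
Rpl39, chrX:37085193-37085272, minus strand: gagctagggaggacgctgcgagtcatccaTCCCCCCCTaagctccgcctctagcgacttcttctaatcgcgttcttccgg
None of the 3 had a run of at least 8 bases over the RefSeq start, and each had one of 10 to 14 bases within 50 bases of it.

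Chromosome X as a whole gives the scale for these values. Of 948 protein-coding genes on X, a promoter peak was found at 252 (26.6%) in WT and at 447 (47.2%) in cKO, with median fold enrichments of 5.07 and 5.73. Among X-linked genes with a peak, *Rpl36a* stood at a percentile of 5.16 in WT and 23.3 in cKO, and *Rpl10* at 56.7 and 72.4. These ranks are among 252 genes in WT and 447 in cKO, so they cannot be compared directly between the lists. *Rpl10* was therefore near or above the middle of its chromosome while low among ribosomal protein genes. The median ratio of cKO to WT width was 1.67 (1.59 to 1.79) for 251 X-linked genes, whereas *Rpl36a* had 1.18 and *Rpl10* had 0.930. Of the X-linked genes, 4 were narrower in cKO, and *Rpl10* was 1 of them.

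The 2 members without a peak differed in what surrounded them. Peak names are numbered along each chromosome by the caller, so a gap in the numbers counts calls that were made in the reference library and did not reach the deposited list. Over the whole list, 4789 names (19.9%) were missing in WT and 5333 (15%) in cKO. *Rpl39* lay in a stretch of 206.4 kb without retained peaks in WT and of 119.8 kb in cKO, and 0 names were missing there in either list. *Rps25*, for a small subunit protein used in initiation at internal entry sites, lay in a stretch of 128.5 kb in WT (chr9:44289151-44417653) in which 15 names were missing. In cKO it lay in one of 123.2 kb (chr9:44289554-44412730) in which 19 were missing. Only 22 of 19288 neighboring pairs of WT peaks had as many names missing between them, and 16824 pairs had 0. Besides *Rps25*, this stretch held the 5′ ends of 9 other protein-coding genes, among them *H2afx* and *Hyou1*. The lists therefore do not show whether *Rps25* itself had a call, and which step removed the calls was not tested. Its start is shown in the same form as above, with a run of 14 bases.
Rps25, chr9:44407664-44407743, plus strand: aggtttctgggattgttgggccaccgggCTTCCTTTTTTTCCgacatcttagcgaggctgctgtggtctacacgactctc

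Other ribosomal protein genes lie outside the symbol rule. Of 5 under other symbols, 4 had a promoter peak in each list. *Rpsa*, which encodes a small subunit protein, had 3877 bp and 13.5 in WT and 5339 bp and 22.1 in cKO, wider than all 72 members. *Rps3a1* had 935 bp and 9.01 in WT and 984 bp and 17.5 in cKO. *Fau*, which encodes a ribosomal protein fused to a ubiquitin-like protein, had 1655 bp and 13.3 in WT and 2488 bp and 19.3 in cKO. *Rps4x*, on chromosome X, had no promoter peak in either list, as *Rpl39* had none.

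Paralogs of ribosomal proteins, several of them expressed mainly in testis, had a promoter peak in 6 of 8 genes in WT and in 7 of 8 in cKO. The 3 X-linked members each have an autosomal one. *Rpl36al* had 18.8 and 1500 bp in WT (percentile 95.04) and 29.8 and 2261 bp in cKO (percentile 94.99), above the highest of the 72 members in both lists. *Rpl10l*, which takes over from *Rpl10* in male meiosis, had 6.75 and 696 bp in WT (percentile 33.9) and 10.5 and 1348 bp in cKO (percentile 42.1). *Rpl39l* had 7.88 and 1395 bp in WT and 8.18 and 1157 bp in cKO, so that its percentile went from 43.5 to 30.9. In each of these 3 pairs, the autosomal copy had a higher fold enrichment than the X-linked one in both lists, or a peak where the X-linked one had none. *Rpl3l*, a muscle gene, had a peak in cKO alone, of 707 bp and 3.6, and *Rps27rt* had none.

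Members were then set beside other genes of the translation machinery. Of 78 mitochondrial ribosomal protein genes, 73 (93.6%) had a promoter peak in WT and 76 (97.4%) in cKO. Their median widths were 842 and 1214 bp, and their median percentiles by fold enrichment 48.3 and 49.9, below those of the cytosolic set. Of 42 translation factor genes, 38 had one in WT and 39 in cKO, with median widths of 1412 and 1826 bp and median percentiles of 70.6 and 75. Of 47 ribosome biogenesis genes, 45 had one in WT and 46 in cKO, with median widths of 1095 and 1588 bp and median percentiles of 64.2 and 62.7. The median width ratios of these 3 sets were 1.44, 1.36 and 1.43. Nearly every gene of the machinery was thus open in both lists, and cytosolic ribosomal protein promoters were neither its strongest nor its widest.

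**Figure D4:**
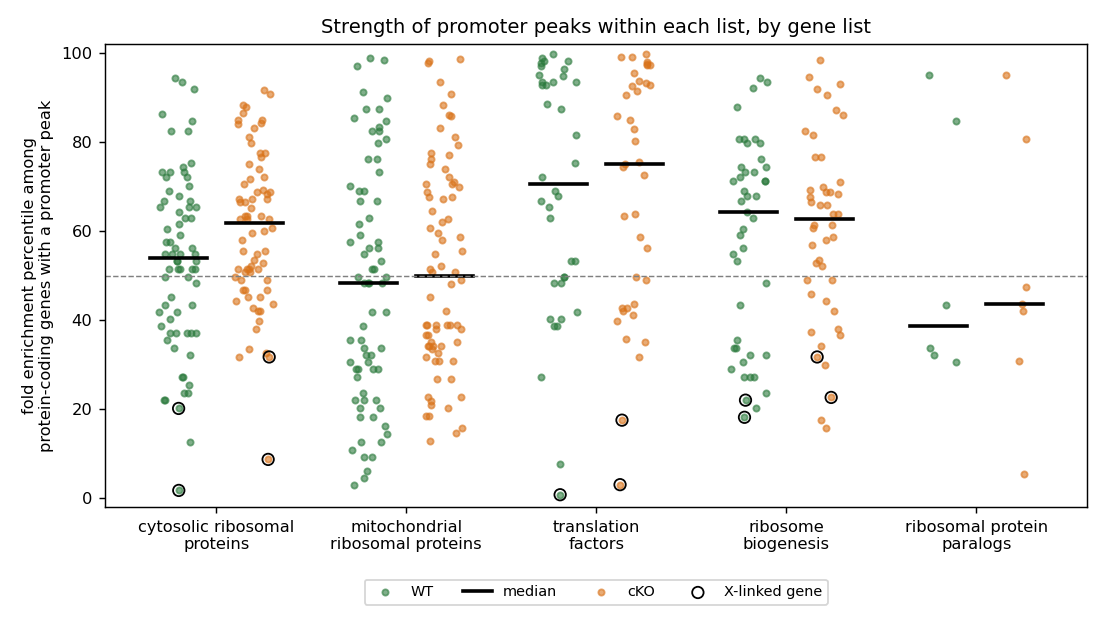
Each point is a gene with a promoter peak, at its percentile by fold enrichment among all protein-coding genes with a promoter peak in the same list (y axis), by gene set (x axis), green for WT and orange for cKO, with black bars at the medians. Circles mark X-linked genes, and the median of the cytosolic ribosomal proteins lies at 54 in WT and 61.7 in cKO, between mitochondrial ribosomal proteins and translation factors.

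The members also shared features of gene structure that bear on how their peaks were scored. They were short, with a median length of 3.24 kb against 17.4 kb for all protein-coding genes, and they had a median of 6 annotated starts against 3. A promoter peak covered a median of 16.7% of the gene in WT and 26.4% in cKO, against 2.37% and 3.26% of all genes. A snoRNA gene lay within 28 of 74 members (37.8%), against 1.27% of all protein-coding genes. A further peak in the gene body was found in 2 of 72 members in WT (2.78%) and 7 in cKO (9.72%), against 19% and 30.8% of all genes. The cKO ones were in *Rpl3*, *Rpl13a*, *Rpl23*, *Rplp2*, *Rps14*, *Rps18* and *Rps28*, and those of *Rpl3* and *Rps18* were present in WT too. They were named as the whole of a small set and chosen after their values were seen. The start of another protein-coding gene on the opposite strand lay in the peak of 13 of 72 members in WT (18.1%), against 20.5% of all genes. In cKO it lay in the peak of 14 (19.4%), against 19.4%. A start on the same strand lay in the peak of 2 of 72 members in each list (2.78%), against 3.21% of all genes in WT and 3.83% in cKO. For all of these, such as *Rpl7a* with *Med22*, *Rps28* with *Ndufa7* and *Rpl41* with *Zc3h10*, the peak cannot be assigned to 1 gene of the pair.

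Ribosomal protein genes have many processed pseudogenes, and reads could be shared among copies. The share of 50-base stretches of a peak that occur once in the genome had a median of 98.3% over member peaks in WT and 95.3% in cKO. It was lowest in *Rps29*, at 61.1% and 74.1%, and it was below 50% in 0 members. *Rps29* had 942 bp and 12.01 in WT and 1384 bp and 17.0 in cKO, and its values are the least certain of the 72 on this account.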

How the data were processed

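Pachytene spermatocytes were profiled by Omni-ATAC in 4 libraries per genotype. Per the labels and methods, the authors trimmed adapters, aligned paired reads to mm10 with bowtie2, removed duplicates and mitochondrial reads, called peaks per library with MACS2 (q cutoff 0.05, no local background), intersected the replicates and filtered blacklisted regions. The deposited lists give interval coordinates, a score, the fold enrichment over background (a ratio) and the −log10 p and q of the summit from 1 reference library. Depth per library is unknown, so no floor was set.

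Rows were collapsed by peak name with Python 3.11.15 and numpy 2.4.6, and genes and starts were taken from GENCODE vM21. Overlap with the window of 1000 bp upstream to 100 bp downstream replaced the peak centre, since a wide peak over a start can be centred outside the window. The strongest peak counted where a gene had several. Scoring was tested on simulated data, where 100% of 2000 genes were recovered. No test was run; Wilson and order-statistic intervals (95%) cover counting error only. Replicates are separate libraries by label.

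Members, gene lists and rules were chosen with earlier results of these data known. Named genes were members without a peak, the 5 highest and lowest by fold enrichment, width and width ratio, X-linked and stalk genes, and peaks under 3 rows. Some genes that meet these rules are not reported here. RefSeq windows matched 54 of 74 members. Unique stretches were counted at a step of 25 bases. Alternatives varied the promoter definition, starts, q threshold, list length, peak choice, row merging and gene set.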

Additional observations from a re-analysis of the deposited data

How the results depend on the processing

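Of 180 values under 12 alternatives, 157 stayed within the spread set for them and 23 moved. The share of all protein-coding genes with a promoter peak, in the order WT and cKO, was 39.4% and 43.2% by peak centre, 52.7% and 60.4% within 3000 bp of a start, and 47.6% and 54.9% where the peak had to contain a start. It was 44.3% and 51.2% with the 5′ end of the gene alone and 48.4% and 55.3% with starts of protein-coding transcripts. It was 47.0% and 54.0% with a −log10 q threshold of 5, 41.1% and 49.6% with one of 10, 52.4% in cKO at equal list lengths, and 51.1% and 57.6% on autosomes. Members with a peak in cKO alone numbered 3 by peak centre, 2 with the 5′ end of the gene, and 1 at each q threshold. Members with a peak in WT alone numbered 5 by peak centre. Of 74 members, 68 in WT and 66 in cKO had a peak by peak centre. With the 5′ end of the gene alone, 67 and 69 did. The median WT percentile of members fell to 45.4 with the threshold of 10, where fewer weak peaks enter the ranks. The other causes were not tested. The median widths, fold enrichments and width ratio of members and the counts of peaks with 3 or more rows were among the values that stayed. No paired analysis was possible because each genotype had 1 list without a value per library, and for the same reason no library could be left out.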

Other observations

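Pseudogenes of the members were scored in the same way. Of 282 annotated pseudogenes named after a member, 14 (4.96%, 95% Wilson interval 2.98 to 8.16%) had a peak in the promoter window in WT and 21 (7.45%, 4.92 to 11.1%) in cKO. Among 9665 other processed pseudogenes, 1.44% and 3.16% did. The median fold enrichment of the pseudogene peaks was 3.94 in WT and 4.42 in cKO, below the medians of 9.1 and 15.1 at members. Pseudogenes of *Rps12* on chromosome X made up 9 of the 14 WT peaks and 10 of the 21 cKO peaks, out of 15 such pseudogenes on X. In cKO these 10 lay between chrX:123514240-125987748, with a median width of 1228 bp and a median fold enrichment of 4.25. The share of 50-base stretches that occur once in the genome had a median of 0% over these *Rps12* pseudogene peaks in both lists, so their reads cannot be assigned to 1 copy. Over the other pseudogene peaks it had a median of 95.1% in WT and 96.2% in cKO. The strongest pseudogene peak in cKO, that of *Rps10-ps1* at 39.3, held the start of the protein-coding gene *Ensa*.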
